A study of Mus musculus with 3 samples.

Results

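Genes of cholesterol synthesis and efflux were read on the microarrays of 3 cell fractions from mouse epididymal fat. The members were 31 genes named for their role in this pathway, with earlier results of these data known. Of them, 30 had at least 1 probe under their own name among the 37074 genes on the arrays. These 30 genes were read by 61 of 56605 probes that are not controls. The study asked how the floating, small, proliferating cells of fat (SPA) compare with stromal vascular cells (SVC) and with mature white adipocytes (MWA, named MA in the sample records). Epididymal fat of male C57/BL mice aged 20 weeks was digested with collagenase and spun at 9 g for 1 s, and SVC were the cells of the lower phase. The floating cells were spun again at 226 g for 3 min, after which SPA had sedimented and MWA still floated. SVC and SPA were grown in DMEM until 90% confluent before RNA was taken, and no culture is described for MWA. The titles of the SVC and SPA samples carry one date and those of MWA another, so culture, date and fraction cannot be told apart in any ratio of MWA to a cultured fraction. Whether the RNA came from 1 mouse or from pooled mice is not given for the arrays.

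Each fraction was measured on 1 Agilent 1-colour array, so no difference below has a replicate check and no p-value is given. Of the 59305 spots that are not controls, 58.6% to 61.4% were well above background on an array, and 0 were saturated. Levels are log2 of the processed signal over the 75th percentile of that array, so 0 marks that percentile. A ratio is the difference of the levels of 1 probe on a pair of arrays. Levels of different probes cannot be ranked against each other. The median SD of probes spotted repeatedly on 1 array was 0.038 for SVC, 0.040 for SPA and 0.046 for MWA on the log2 scale, which covers the spread of spots within an array and nothing between animals or cultures. In bulk samples such as these, fewer cells of a type and less RNA per cell cannot be told apart.

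Cells make cholesterol from acetyl-CoA through mevalonate, farnesyl diphosphate, squalene and lanosterol. When sterols in the endoplasmic reticulum run low, SCAP escorts the transcription factor SREBP2 to the Golgi for cleavage, and the freed factor raises the genes of synthesis, whereas INSIG proteins hold SCAP back when sterols are plentiful. Oxysterols activate the nuclear receptors LXRα and LXRβ, which raise genes of efflux such as Abca1, Abcg1 and Apoe. Adipocytes store much free cholesterol in the membrane of their lipid droplet, while macrophages loaded with lipid store it as cholesteryl esters.

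The promoters of the synthesis genes are shown first because every synthesis enzyme on the arrays was lower in SPA than in SVC. Promoters are the 250 bases before the annotated start, taken from RefSeq on GRCm38.p6, and 24 of the 31 members were in that table. In the sequences that follow, written 5′ to 3′ on the strand of the gene, capitals mark a sterol regulatory element (SRE, TCACNCCAC, bound by SREBP) or an NF-Y box (CCAAT, bound by a factor that acts with SREBP) on either strand. The 4 shown were picked after the values were seen, and the motifs put in capitals after the motif counts were seen. Hmgcs1 holds the only exact match to the SRE. Idi1 and Cyp51 were among the lowest ratios of SPA to SVC, and Insig1 encodes the brake on the pathway. They lie at chr13:119690101-119690350 on the plus strand for Hmgcs1, chr13:8885356-8885605 on the plus strand for Idi1, chr5:4104698-4104947 on the minus strand for Cyp51 and chr5:28071162-28071411 on the plus strand for Insig1.
Hmgcs1: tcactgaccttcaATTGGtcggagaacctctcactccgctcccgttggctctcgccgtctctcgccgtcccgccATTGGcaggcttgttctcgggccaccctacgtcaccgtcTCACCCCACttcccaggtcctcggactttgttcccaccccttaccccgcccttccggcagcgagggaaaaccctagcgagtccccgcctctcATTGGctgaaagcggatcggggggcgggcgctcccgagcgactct
Idi1: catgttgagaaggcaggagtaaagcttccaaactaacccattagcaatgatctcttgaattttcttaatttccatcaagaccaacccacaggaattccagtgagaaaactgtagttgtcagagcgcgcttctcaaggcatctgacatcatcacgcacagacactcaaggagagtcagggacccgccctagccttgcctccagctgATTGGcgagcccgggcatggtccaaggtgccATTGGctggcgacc
Cyp51: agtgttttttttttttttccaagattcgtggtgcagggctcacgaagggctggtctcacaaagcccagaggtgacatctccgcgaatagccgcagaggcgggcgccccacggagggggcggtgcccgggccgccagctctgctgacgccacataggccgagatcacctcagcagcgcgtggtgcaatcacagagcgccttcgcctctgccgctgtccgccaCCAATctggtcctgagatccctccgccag
Insig1: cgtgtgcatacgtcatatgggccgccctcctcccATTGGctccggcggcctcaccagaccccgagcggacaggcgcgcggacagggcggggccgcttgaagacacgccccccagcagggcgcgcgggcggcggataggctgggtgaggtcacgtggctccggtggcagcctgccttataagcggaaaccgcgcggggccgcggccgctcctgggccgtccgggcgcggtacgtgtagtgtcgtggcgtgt

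In Hmgcs1 the SRE lay at -137 to -129 from the start, with NF-Y boxes on both of its sides. No match of 1 motif overlapped a match of another in these 4 promoters. All motifs were searched on both strands, and a match is a description of the letters and not of binding. Only exact letters were counted, so sites with other letters were missed. A promoter without a match may therefore still hold a site. The SRE was found in 1 of the 24 members, Hmgcs1, and in 1.22% of all genes in the table. An NF-Y box was found in 18 of 24 members, and in 13 of the 14 synthesis enzymes with a promoter, against 37.5% of all genes. The box GGGCGG of the factor Sp1 was found in 19 of 24 members and again in 13 of 14 synthesis enzymes, against 35.4% of all genes. The E-box CACGTG, which SREBPs can also bind, was found in 6 of 24 members, against 6.86% of all genes. The LXR element, AGGTCA repeated in the same direction after any 4 bases, was found in 0 of 24 members and in 0.0148% of all genes. A narrower set was the 11368 genes with a promoter in the table that were well above background on all 3 arrays. Of these, 39.4% held an NF-Y box, 58.2% a GGGCGG box, 9.28% an E-box and 1.26% an SRE. The shares, most of all for GGGCGG, thus depended on the genes compared. That comparison was chosen after the counts were seen. Fdps, Fdft1, Sqle, Stard4, Npc1, Abcg1 and Scarb1 were not searched.

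**Figure D1:**
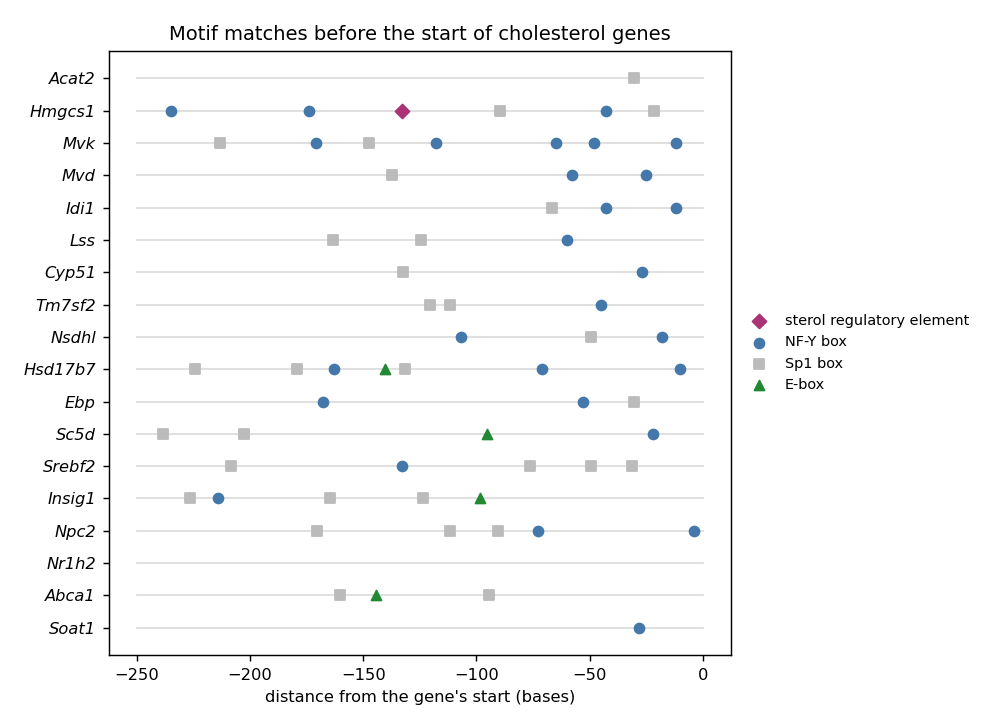
Motif matches in the 250 bases before the start of the 18 members that have 1 promoter in the table. The x axis is the distance from the start in bases, and each symbol is the centre of an exact match on either strand. NF-Y boxes (circles) stand in every synthesis enzyme drawn except Acat2, whereas the only exact match to the SRE (diamond) stands in Hmgcs1. Sites with other letters are not drawn.

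All 16 synthesis enzymes with a probe were lower in SPA than in SVC, by 1.02-fold to 2.32-fold. Their median log2 ratio was -0.67, whereas the median over the 20699 genes measured on both arrays was 0.05, and 44.0% of those genes were lower and 56.0% higher in SPA. Of the 16 enzymes, 3 were at least 2-fold lower, which was true of 3.25% of all genes, whereas the 2-fold rule upward was met by 0 of the 16 and by 3.90% of all genes. None of the 30 members differed 5-fold between SPA and SVC, as 0.322% of genes did upward and 0.353% downward. The count and the median over the synthesis enzymes were chosen after the ratios had been seen.

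Hmgcs1 makes HMG-CoA, an early step of the pathway. Its level was 3.47 for SVC, 2.55 for SPA and 5.27 for MWA. Thus Hmgcs1 was lowest in SPA, 1.89-fold below SVC, and MWA stood highest, 6.58-fold above SPA. A further Hmgcs1 probe was well above background in MWA only, and allowed no more than a bound there, at least 1.20-fold above SPA. Acat2, which joins acetyl-CoA units, had no probe of its own name. A probe named Acat3 is annotated to the transcripts of both genes, was 1.58-fold below SVC in SPA and 5.68-fold above SPA in MWA, and cannot be assigned to either gene.

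The steps from mevalonate to farnesyl diphosphate held 5 enzymes, all lower in SPA than in SVC. Idi1, the isomerase that sets the balance of the 5-carbon units, had levels of 1.58 for SVC, 0.41 for SPA and 1.13 for MWA. Fdps, which joins these units into farnesyl diphosphate, had levels of 4.11, 2.96 and 2.92 in the same order. For both enzymes SVC was the highest fraction, by 2.26-fold over SPA for Idi1 and 2.22-fold for Fdps. MWA lay 1.66-fold above SPA in Idi1 and within 1.03-fold of SPA in Fdps. The local background around the Fdps spot in SVC was marked as outlying. Mvk, the mevalonate kinase, had levels of 3.40, 2.77 and 3.35, so SPA was the low fraction by 1.55-fold against SVC. Pmvk, the kinase of the next step, had levels of 2.58, 2.13 and 4.23, and Mvd, which removes a carboxyl group, had levels of 0.36, -0.17 and -0.54. MWA was therefore the highest of the fractions in Pmvk, 4.30-fold above SPA, and the lowest in Mvd, 1.29-fold below SPA.

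The enzymes that form squalene and close the ring were also lower in SPA. Fdft1, the squalene synthase, had levels of 2.83 for SVC, 1.98 for SPA and 2.97 for MWA, with SPA 1.80-fold below SVC. Sqle, the epoxidase that is a second control point of the pathway, had levels of 3.17, 2.34 and 0.95. Sqle thus stepped down from SVC to SPA by 1.78-fold and from SPA to MWA by 2.61-fold, although the local background of its spot was marked as outlying in SPA and MWA. Lss, which makes lanosterol, had levels of 0.97, 0.31 and 0.36, and SPA was 1.58-fold below SVC with MWA within 1.03-fold of SPA. The other Lss probes put SPA 1.96-fold and 1.23-fold below SVC and MWA 1.16-fold and 2.01-fold above SPA.

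From lanosterol to cholesterol 7 enzymes were read. Cyp51, the lanosterol demethylase, had levels of 2.10 for SVC, 0.89 for SPA and 1.01 for MWA. At 2.32-fold below SVC in SPA it had the lowest ratio of the 30 members, and its other probe was 2.10-fold lower. Nsdhl, which takes part in the removal of methyl groups, had levels of 0.19, -0.49 and 0.98, and Sc5d, a desaturase, had levels of 1.49, 0.76 and 2.65. In both, SPA was the lowest fraction and MWA the highest, at 2.77-fold above SPA in Nsdhl and 3.72-fold in Sc5d. The second Sc5d probe gave 9.41-fold. Hsd17b7, a keto-reductase, had levels of 2.54, 2.20 and 0.90, and MWA was 2.46-fold below SPA. The local background of that Hsd17b7 spot was marked as outlying in SPA, and the second probe gave 2.19-fold. Tm7sf2, a sterol reductase, had levels of 0.09, 0.06 and 1.44. Ebp, a sterol isomerase, had levels of 4.56, 4.39 and 4.43, and Dhcr7, which acts at the end of the route, had levels of -0.02, -0.12 and -0.59. In Tm7sf2, Ebp and Dhcr7 the gap between SPA and SVC was at most 1.13-fold at the brightest probe. The 2 probes of Tm7sf2 had opposite signs there, and the dimmer had outlying local background in SVC.

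**Figure D2:**
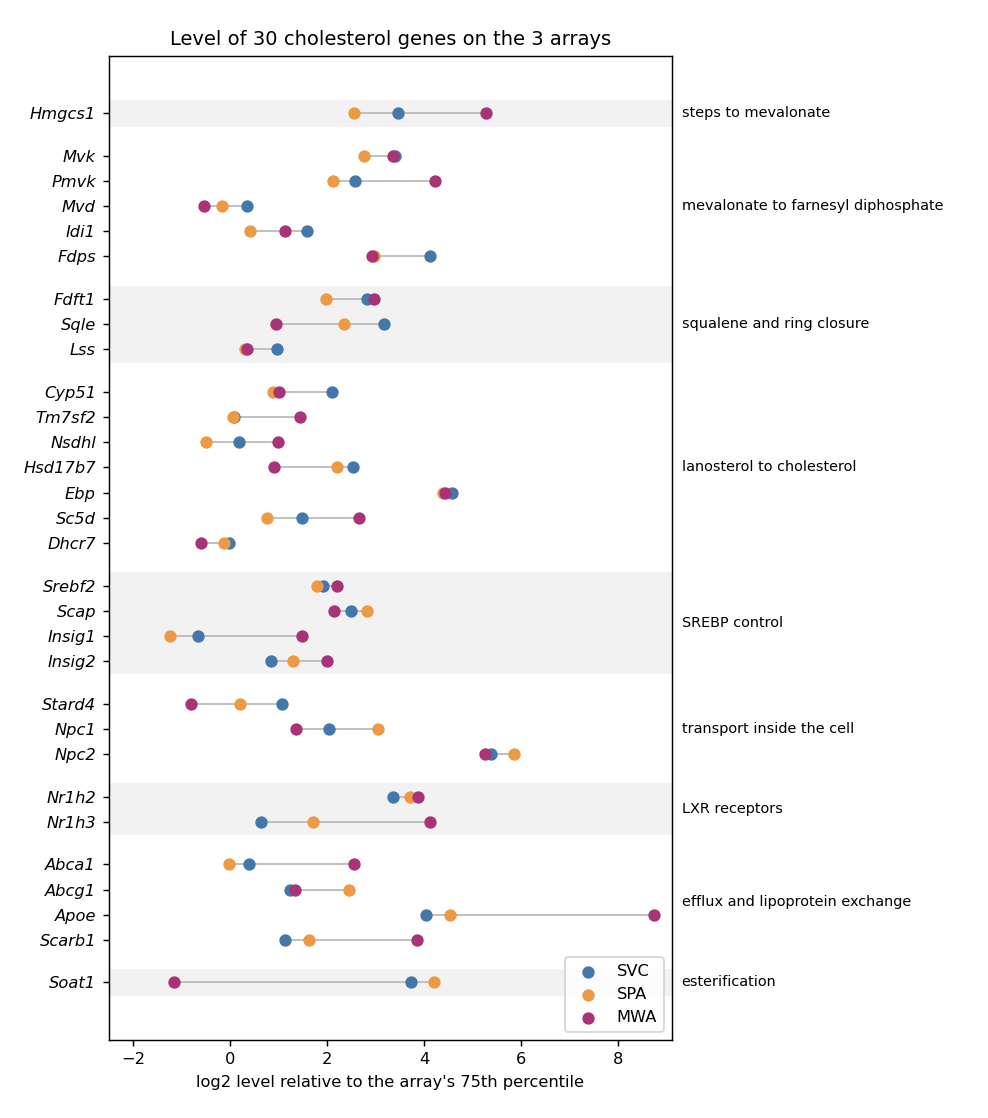
Level of each of the 30 members on the 3 arrays (x axis, log2 of the signal over that array's 75th percentile, 1 array per fraction), grouped by role. Each point is 1 array and has no error bar, and lines join the arrays of 1 gene. In the synthesis enzymes the SPA point lies left of the SVC point throughout, whereas Apoe and Soat1 show the widest gaps between MWA and the cultured fractions.

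Of the 14 other members, 10 stood higher in SPA than in SVC, against 56.0% of all measured genes. The median log2 ratio of these 14 was 0.46, beside 0.05 over all measured genes. Over all 30 members 10 were higher and 20 lower, and the median was -0.38. SREBP control was split. Srebf2, which encodes SREBP2, had levels of 1.92 for SVC, 1.79 for SPA and 2.21 for MWA. Scap, its escort, had levels of 2.50, 2.82 and 2.14. Neither gene differed by more than 1.61-fold in neighbouring fractions at the probe used, and the second Srebf2 probe was 1.62-fold lower in MWA than in SPA where the first was 1.34-fold higher. Insig1 is itself a target of SREBP and holds SCAP in the endoplasmic reticulum. Its levels were -0.67, -1.23 and 1.49, so SPA was lowest, 1.48-fold below SVC, and MWA was 6.59-fold above SPA. Insig2, the relative that is not raised by SREBP2 in the same way, had levels of 0.85, 1.30 and 2.0, and all 3 of its probes put SPA above SVC and MWA above SPA.

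The 3 members that carry cholesterol inside the cell lay lower in MWA than in SPA, save Npc2 under quantile normalization. Npc1 and Npc2 act together to release cholesterol from lysosomes. Npc1 had levels of 2.05 for SVC, 3.04 for SPA and 1.37 for MWA, and Npc2 had levels of 5.37, 5.85 and 5.24. Both were highest in SPA, by 1.99-fold over SVC for Npc1 and 1.39-fold for Npc2, and the 3 Npc1 probes that could be read all had that sign. In MWA, Npc1 was 3.19-fold lower than in SPA and Npc2 1.52-fold lower. Quantile normalization turned the direction for Npc2, to log2 ratios of 0.10 for MWA over SPA and 0.55 for MWA over SVC, so that MWA was then its highest fraction. Stard4, a carrier of sterols in the cytosol that SREBP2 raises, had levels of 1.07, 0.20 and -0.81. It thus followed the synthesis enzymes from SVC to SPA, with a ratio 1.83-fold lower, and was 2.01-fold lower again in MWA.

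The LXR receptors were higher in SPA than in SVC. Nr1h3, which encodes LXRα, had levels of 0.65 for SVC, 1.71 for SPA and 4.13 for MWA. Each step was upward, by 2.09-fold and then 5.34-fold. The second probe gave 1.92-fold and 6.05-fold, with its local background marked as outlying in SPA and MWA. Nr1h2, which encodes the widely expressed LXRβ, had levels of 3.35, 3.71 and 3.86, with steps of 1.28-fold and 1.11-fold. The rule of 2-fold upward from SVC to SPA was met by 2 of the 30 members, Nr1h3 and Abcg1, against 3.90% of all genes.

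The genes of efflux did not follow one order. Abcg1, which passes cholesterol to HDL, had levels of 1.23 for SVC, 2.46 for SPA and 1.33 for MWA. It was the only member highest in SPA and lowest in SVC, an order that 6.90% of all genes measured on the 3 arrays showed. Abca1, which loads lipid-poor apolipoprotein A-I, had levels of 0.38, -0.03 and 2.55. Here SPA was the lowest, 1.33-fold below SVC, and MWA was 5.97-fold above SPA. The 2 Abca1 probes had the same sign in each comparison. Scarb1, a receptor that exchanges cholesterol with HDL, had levels of 1.13, 1.64 and 3.85, and MWA was 4.63-fold above SPA. The 2 Scarb1 probes disagreed on SPA and SVC, with 1.42-fold higher and 1.21-fold lower.

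Apoe, the apolipoprotein of cholesterol-rich particles, had the largest upward ratio of the members between SPA and MWA. Its level was 4.03 for SVC, 4.53 for SPA and 8.73 for MWA. MWA was 18.4-fold above SPA, a ratio over that of 98.7% of measured genes, and the second probe gave 27.4-fold. The probe that read Apoe lies at chr7:20281732-20281791 of mm9 on the minus strand, and is shown because the largest upward ratio rests on it.
Apoe probe: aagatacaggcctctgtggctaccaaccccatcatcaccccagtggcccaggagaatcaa

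Soat1, the enzyme that esterifies cholesterol for storage in droplets, stood at the other end. Its level was 3.73 for SVC, 4.19 for SPA and -1.16 for MWA, still well above background on each array. MWA was 40.7-fold below SPA and 29.6-fold below SVC, and 0.140% of measured genes had a lower ratio of MWA to SPA. The 4 Soat1 probes that could be read gave ratios of 25.6-fold to 40.7-fold lower in MWA against SPA and of 1.25-fold to 1.38-fold higher in SPA against SVC. The local background at the brightest Soat1 probe was marked as outlying in SPA.

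**Figure D3:**
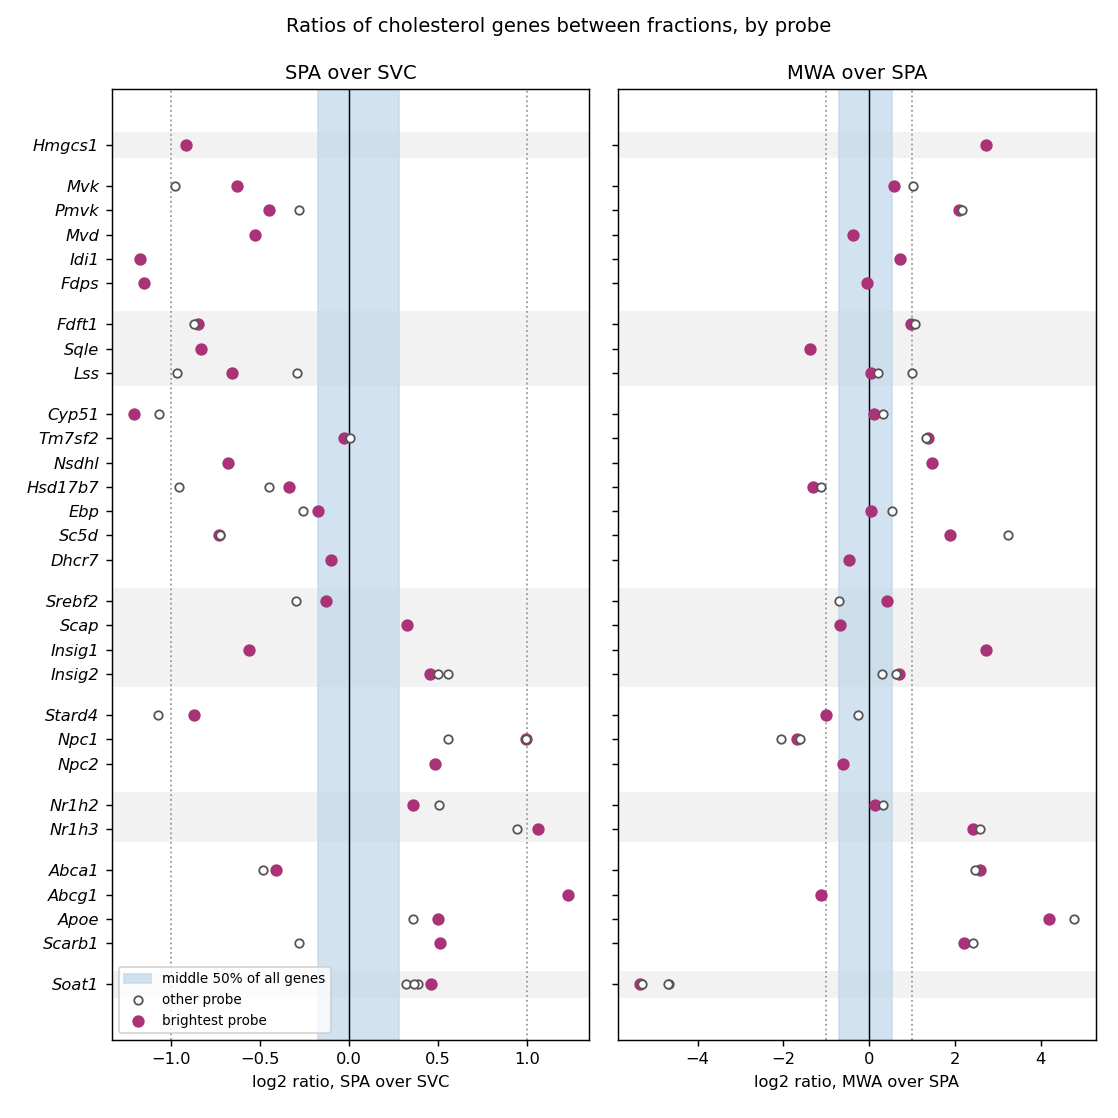
Log2 ratios of the members for SPA over SVC (left) and MWA over SPA (right), at the brightest probe of each gene (filled) and at its other probes that were well above background on both arrays (open). The blue band holds the middle 50% of all measured genes, dotted lines mark 2-fold, and the x scales of the panels differ. In the left panel each filled point of a synthesis enzyme is at or below 0, and in the right panel the members spread from Soat1, at -5.35, to Apoe, at 4.20.

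Between MWA and SPA, 19 of 30 members were higher in MWA and 11 lower, with a median log2 ratio of 0.28, while over all genes 46.3% were higher and 53.7% lower and the median was -0.08. At least 2-fold higher were 10 members, against 15.8% of all genes, and at least 2-fold lower were 6, against 17.9%. At least 5-fold higher were 5 members, against 5.49% of all genes, and they were Hmgcs1, Insig1, Nr1h3, Abca1 and Apoe. Soat1 alone was at least 5-fold lower, against 3.98% of all genes. The synthesis enzymes were split between these fractions, with 11 of 16 higher and 5 lower in MWA.

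Between MWA and SVC, 15 members were higher and 15 lower, with a median of 0.02, beside 47.1% and 52.9% of all genes and a median of -0.07. At least 2-fold higher were 10 members, against 17.3% of all genes, and 6 were at least 2-fold lower, against 18.0%. At 5-fold there were 3 members upward, Nr1h3, Apoe and Scarb1, against 5.74% of all genes. Downward there was Soat1, against 3.97%. The 3 ratios share their arrays in pairs, so they are not independent of each other. SPA was the lowest and SVC the highest fraction in 5 members, Mvk, Idi1, Lss, Cyp51 and Ebp, against 5.09% of the 19865 genes measured on all arrays. SPA was the lowest and MWA the highest in 9 members, among them Hmgcs1, Pmvk, Fdft1, Sc5d, Insig1 and Abca1, against 14.5% of those genes. MWA was the lowest in 6 members with SVC highest, against 24.0%, and in 4 with SPA highest, against 24.1%. SVC was the lowest in 5 members with MWA highest, against 25.4%, and in 1 with SPA highest, against 6.90%.

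Probes of the same gene were the only repeat of a ratio that the arrays offer. Of 19 members with at least 2 readable probes, 17 had the same sign at all of them for SPA over SVC, 18 for MWA over SPA and 15 for MWA over SVC. The median SD of the log2 ratio between probes of a gene was 0.10, 0.22 and 0.23 in these comparisons. Mvk, Lss, Ebp and Srebf2 had probes of opposite sign for MWA over SVC.

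Other genes of the pathway were read from 7 lists of 48 genes, all of which were on the arrays. Between SPA and SVC, 47 could be measured, of which 31 were higher and 16 lower in SPA, and the median log2 ratio was 0.22. Over all genes 56.0% were higher and 44.0% lower. At the 2-fold rule 5 of them lay upward and 2 downward, against 3.90% and 3.25% of all genes, and 0 reached 5-fold, against 0.322% and 0.353%. Of the 6 other synthesis enzymes 4 were lower in SPA than in SVC. Msmo1, which removes methyl groups, was 1.69-fold lower and Lbr, a sterol reductase of the nuclear membrane, 1.55-fold lower. Tmem97, a sterol-responsive protein that binds NPC1, was 1.87-fold lower in SPA than in SVC, with all 3 probes of the same sign, and 3.02-fold lower again in MWA.

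Between MWA and SPA, 20 of the 48 were higher and 28 lower in MWA, with a median of -0.10, beside 46.3% and 53.7% of all genes. The 5-fold rule was met by 6 upward and 4 downward, against 5.49% and 3.98% of all genes. Apoc1, an apolipoprotein whose gene neighbours Apoe, had levels of -0.39 for SVC, 1.01 for SPA and 7.32 for MWA. Pltp, which moves phospholipid between lipoproteins, had levels of -0.48, -0.87 and 3.35. MWA was highest in both, 79.3-fold above SPA for Apoc1 and 18.6-fold for Pltp. Lipe, the hormone-sensitive lipase that also cleaves cholesteryl esters, was 15.6-fold higher in MWA at its brightest probe and 80.4-fold at another. Cav1, the coat protein of caveolae, was 11.4-fold higher and Scp2, a sterol carrier, 5.83-fold. The local background of the Cav1 spot was marked as outlying in MWA. Cyp27a1, which makes 27-hydroxycholesterol, did not rise above background in the cultured fractions, and MWA exceeded SPA at least 5.70-fold. Srebf1, which encodes the SREBP of fatty acid synthesis, was 4.70-fold higher in MWA, and Mylip, an LXR target that marks lipoprotein receptors for breakdown, 4.81-fold.

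The 4 that were at least 5-fold lower in MWA act in cleavage of esters, uptake or oxysterol synthesis. Lipa, the lysosomal acid lipase, had levels of 3.04 for SVC, 4.56 for SPA and 1.12 for MWA, and Nceh1, a neutral cholesteryl ester hydrolase, had levels of 3.75, 4.12 and 0.28. SPA was thus highest in both, with MWA 10.8-fold below SPA in Lipa and 14.3-fold in Nceh1. Msr1, a scavenger receptor of macrophages, was 29.8-fold lower in MWA than in SPA, and Ch25h, which makes 25-hydroxycholesterol, 5.21-fold lower. Soat2, the relative of Soat1, had levels of -2.35, -0.95 and -3.23, and Cd36, a receptor for fatty acids and oxidised lipoprotein, had levels of 2.86, 4.47 and 5.64. Soat2 was highest in SPA, as Soat1 was, and Cd36 was highest in MWA. Ch25h and Cyp7b1, which hydroxylates oxysterols, were 3.53-fold and 2.88-fold lower in SPA than in SVC.

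**Figure D4:**
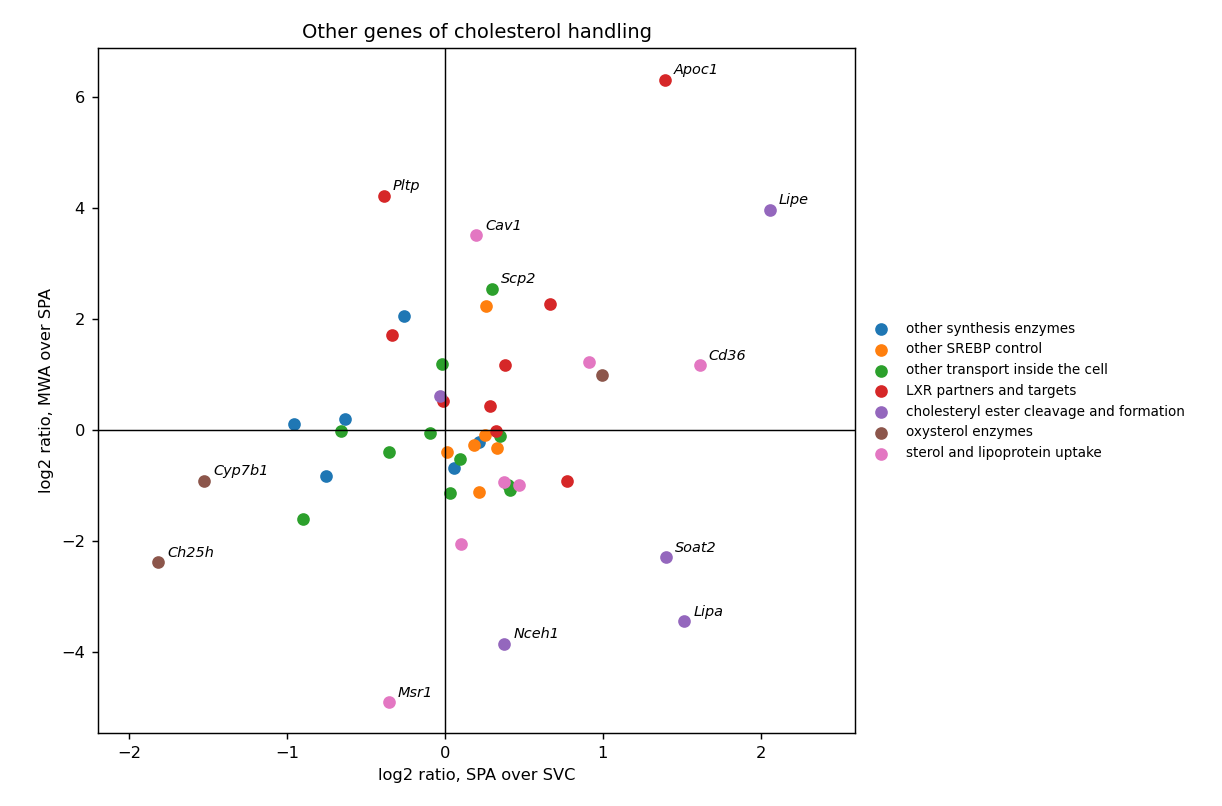
Log2 ratios of the other pathway genes for SPA over SVC (x axis) and MWA over SPA (y axis), coloured by list, for genes well above background on all arrays. SPA enters both axes, so the axes are not independent, and names are given for genes past 5-fold on the y axis or 2-fold on the x axis. Apoc1, at 6.31, lies highest and Msr1, at -4.90, lowest, and Cyp27a1 is left out because it has only a bound.

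Marker genes of cell types differed between the fractions. All 10 adipocyte markers stepped up from SVC to SPA and again to MWA, and their signal, summed relative to the array's 75th percentile, came to 13.0, 92.7 and 3315. Adipoq and Plin1 were not well above background in SVC. Hmgcs1, Insig1, Nr1h3, Abca1, Apoe and Scarb1 were highest in MWA as these markers were. At the brightest probe Nr1h3, Apoe and Scarb1 also stepped up from SVC to SPA, whereas Hmgcs1, Insig1 and Abca1 were lowest in SPA. The first order held 5 members and 25.4% of the genes measured on all arrays, and the second 9 members and 14.5%. The part of adipocytes in the ratios of these genes was not tested. The 9 fibroblast markers were all lower in SPA than in SVC, at a median log2 ratio of -0.98. Their signal summed to 691 for SVC, 372 for SPA and 626 for MWA. The sum rests on the brightest probes, and 6 of the 9 were lower and 3 higher in MWA than in SVC, at a median of -0.65. The 8 cell cycle genes stepped down from SVC to SPA, by a median of -0.71, and from SPA to MWA, by a median of -2.88, with summed signals of 62.3, 40.8 and 5.88. The 5 mesothelial markers on the arrays were also lower in SPA than in SVC, at a median of -2.58, with summed signals of 19.1, 5.63 and 19.4. The synthesis enzymes, at a median of -0.67, moved with these 3 lists between SPA and SVC, and the part of the lists in that result was not tested.

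Macrophage markers are given beside the genes of efflux and esterification. The 5 genes of lipid-laden macrophages, Gpnmb, Trem2, Lgals3, Spp1 and Atp6v0d2, stepped up from SVC to SPA by a median of 1.07 and down from SPA to MWA by a median of -6.65. Their signal summed to 284 for SVC, 509 for SPA and 51.3 for MWA, of which Lgals3 alone gave 187, 316 and 48.6. In each of the 5 genes SPA was highest and MWA lowest, as in Soat1, Npc1, Lipa and Nceh1. That order is common, and was shown by 4 of the 30 members and by 24.1% of the genes measured on all arrays. The summed signal of 13 general macrophage markers was 573, 624 and 217, of which Lyz2 alone gave 428, 447 and 123. The markers did not move together. Between SPA and SVC, 6 were higher and 7 lower in SPA, with C1qa 9.12-fold and C1qb 5.59-fold lower. In MWA, Cd68 was 8.58-fold and Lyz2 3.65-fold below SPA, whereas C1qa was 11.3-fold and C1qb 12.3-fold above it. Cd163 was not well above background in SPA, and MWA exceeded SPA at least 114-fold. Abcg1, a gene that macrophages also express strongly, was highest in SPA as the lipid-laden list was. It departed from that list in MWA, where it was 1.07-fold above SVC and all 5 genes of the list were below SVC. Nr1h3, Abca1, Apoe and Apoc1 were higher in MWA than in SPA, as C1qa, C1qb and Cd163 were. Of the 13 general markers, 5 were higher and 8 lower in MWA than in SPA. The part of macrophages in the ratios of Soat1, Abcg1, Npc1, Npc2, Msr1, Nr1h3, Abca1, Apoe and Apoc1 was not tested.

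MWA also held signs of blood and vessels. The 8 endothelial markers all exceeded SPA in MWA, by a median of 3.61, and their signal summed to 3.31 for SVC, 5.53 for SPA and 83.4 for MWA. The summed signal of the 7 erythrocyte genes was 0.336, 0.368 and 735, with 5 of them not well above background in SVC and SPA. Of 6 lymphocyte markers, SVC showed 2 well above background, SPA 3 and MWA 5, with summed signals of 3.55, 3.83 and 4.88. Scarb1 and Cav1 are also expressed by endothelial cells and were higher in MWA, and the part of those cells in their ratios was not tested.

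**Figure D5:**
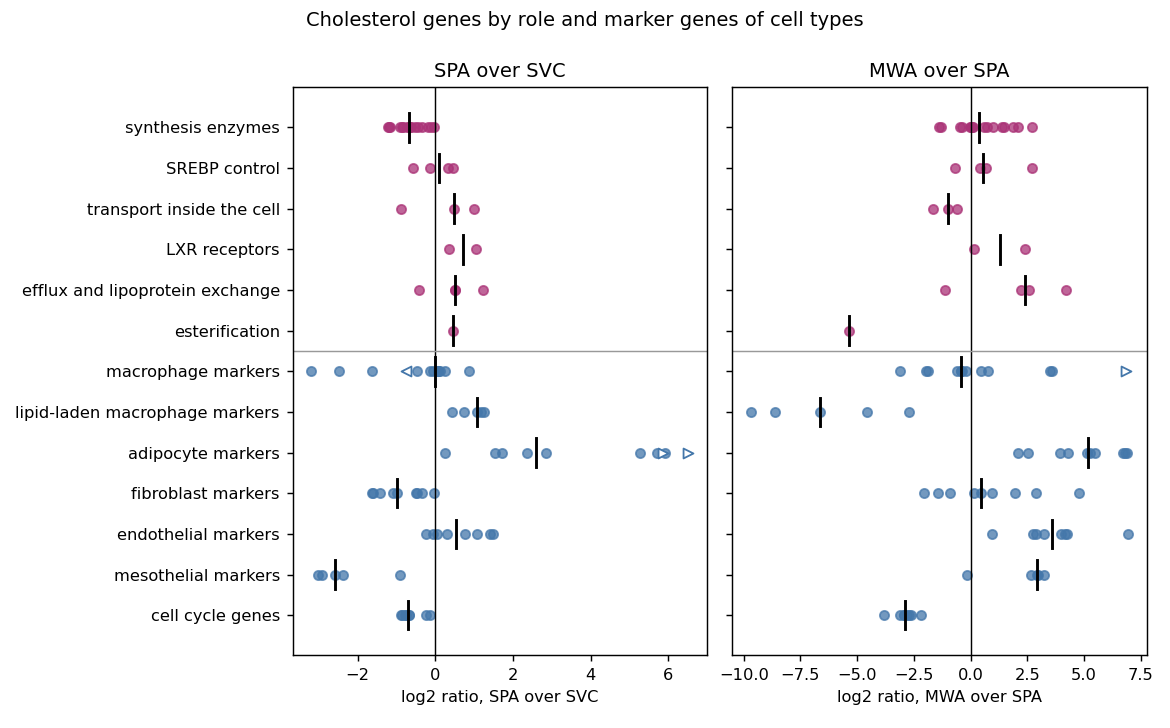
Log2 ratios of the members by role (purple) and of marker lists (blue) for SPA over SVC (left) and MWA over SPA (right), at the brightest probe of each gene. Black bars are medians over measured genes, open triangles are bounds that point away from 0, and the x scales of the panels differ. Between SPA and SVC the synthesis enzymes lie below 0, as do the fibroblast, mesothelial and cell cycle lists, and between MWA and SPA the lipid-laden macrophage list lies below 0 with Soat1.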

How the data were processed

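RNA of SVC, SPA and MWA, 1 sample each, was measured on Agilent 1-colour arrays with 60-base probes, from 50 ng of total RNA. The authors deposited the intensity of each spot as written by Agilent Feature Extraction 10.7.3.1, including the processed signal after background subtraction, and a table of ratios of that signal to 1 constant per array, whose largest relative departure from a constant was 1.37e-06. Fractions were taken from the sample records.

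Control spots and spots marked as outliers (75 to 129 per array) were left out, spots of a probe were averaged, and log2 signals were scaled to the 75th percentile of each array. For each gene the probe brightest on average over the 3 arrays was used. Where the dimmer array was not well above background, its level was set to the higher of its own and the lowest level well above background, giving a bound written as "at least". The 5-fold rule is that of the study and the 2-fold rule was added. No test was possible. Of the 61 probes, 50 had an accession in the RefSeq gene table (GRCm38.p6), all 50 under the same symbol. Array positions are in mm9, and exons were not looked up.

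All members, and of the other lists the genes past 5-fold and at most 4 more a list, were to be named. Members and lists were chosen with earlier results of these data known. The alternatives were normexp (limma 3.58.1, R 4.3.3, offset 50), quantile normalization, scaling over detected probes, the deposited table, no filter or a stricter filter on dim probes, the median probe, the probe with the largest ratio, and the removal of spots whose local background was marked as outlying. The rule for reading genes when a spot is missing was mended after values of that last setting were seen. Python 3.11.15, numpy 2.4.6 and pandas 2.3.3 were used, and the scripts were tested on simulated data. Further genes of the pathway on the arrays were not analysed here, and some genes that are counted in the lists are not reported by name here.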

Additional observations from a re-analysis of the deposited data

How the results depend on the processing

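Over 9 alternative settings, 779 of 805 log2 ratios of single members kept their sign and their side of 2-fold, 9 passed 2-fold only in the alternative, 6 no longer passed it and 11 turned their sign, 0 of them for SPA over SVC and each with a ratio under 2-fold on both sides. With quantile normalization Npc2 turned from -0.61 to 0.10 for MWA over SPA and from -0.13 to 0.55 for MWA over SVC. Srebf2 turned from 0.42 to -0.14 and from 0.29 to -0.35 with the median probe, and to -0.70 and -0.99 with the largest ratio. Ebp turned from -0.14 to 0.07 and 0.27 in those settings for MWA over SVC, and Ebp and Fdps, both within 0.04 of 0 for MWA over SPA, turned under other scalings or normexp. All 16 synthesis enzymes were lower in SPA than in SVC in 8 of the settings, and all 14 with a value were lower without spots of outlying local background. The 2-fold rule upward from SVC to SPA was met by 2 members, and by 1 with normexp, where Nr1h3 fell just short. The median log2 ratio of the members for SPA over SVC, -0.38, was -0.42 with scaling over detected probes, -0.47 with the largest ratio and -0.29 without outlying background. For MWA over SPA, 0.28, it was 0.36 with quantile normalization, 0.36 with scaling over detected probes, 0.61 with the largest ratio and 0.42 without outlying background. For MWA over SVC, 0.02, it was 0.11 with quantile normalization and 0.12 without outlying background. The median of the synthesis enzymes for SPA over SVC, -0.67, was -0.72 with scaling over detected probes, -0.73 with the median probe and -0.85 with the largest ratio. For MWA over SPA, 0.35, it was 0.41 with quantile normalization, 0.43 with scaling over detected probes, 0.50 with the median probe, 0.87 with the largest ratio and 0.58 without outlying background. For MWA over SVC, -0.29, it was -0.45 with the median probe and -0.09 without outlying background. The cause of these shifts was not tested. Of the members past 5-fold, Hmgcs1 moved most for MWA over SPA, from 2.72 to 1.49 with the median probe, where a dim second probe with only a bound enters, and to 3.27 with quantile normalization. No paired analysis was possible because each group holds 1 sample. Dim probes are limited by signal over background, and 4 of the 61 member probes were above background on no array.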
